A study of Mus musculus with 8 samples.

Results

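The genes of glycolysis, glucose transport and pyruvate fate were followed in islets of mice that overexpress *Ucp2* in their β-cells. The set holds 33 genes, chosen by symbol from the 26894 gene symbols of the array table. They cover glucose entry, the cytosolic steps from glucose 6-phosphate to pyruvate, the enzymes that set fructose 2,6-bisphosphate, lactate formation and export, the kinases that switch off pyruvate dehydrogenase, the reverse step of phosphofructokinase and the glycerol phosphate shuttle. Each gene was read from 1 probe, the one with the highest mean over the 8 normalized columns of the authors' table. Of the 33 genes, 32 were measured above background on at least 4 arrays and could be tested. *Pgam2*, the phosphoglycerate mutase of muscle, was above background on 1 of 8 arrays and was not tested.

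RNA of islets from 4 βUCP2Tg and 4 WT samples, all male, was labelled with Cy3 and hybridised to one-colour Agilent arrays. βUCP2Tg mice carry a mouse *Ucp2* cDNA behind the promoter of the rat *Ins2* gene, which is active in β-cells, while the other cells of the islet do not use it. Their WT littermates lack the transgene, and the line had been backcrossed to C57BL6/J. Islets of both genotypes were kept for 8 h in RPMI 1640 medium with serum, antibiotics and 200 mg/dL glucose before the RNA was taken. The sources used here do not say whether a sample holds the islets of 1 mouse or of several, so every p-value measures the spread between these samples. Islet donors were 8 to 12 weeks old, and the age of each sample was not given in the sources used here.

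Glycolysis splits glucose into pyruvate in the cytosol and yields a little ATP and NADH. β-cells use it as a glucose sensor: glucose enters through a transporter, and most of the pyruvate is burnt in the mitochondria, where the ATP that triggers insulin release is made. Lactate dehydrogenase A and the lactate exporter are kept low in healthy β-cells, so that little pyruvate is lost as lactate. When oxygen is short, the transcription factor HIF-1 raises a well known set of these genes, among them *Slc2a1*, *Pgk1*, *Ldha*, *Slc16a3* and *Pdk1*, and binds DNA at a short core, ACGTG or GCGTG.

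The stretches of 250 bases before the start of transcription are shown for 7 members. Some paralogs among the members were lower at an unadjusted p under 0.05 and others were not, and no test compared paralogs. *Slc2a1*, *Ldha* and *Slc16a3* had the largest differences between the genotypes at the probe used for each gene, *Pklr* and *Pdk2* were the members whose groups did not overlap, and *Slc2a2* and *Ldhb* are the sister genes of the first pair. The sequences are those of RefSeq for GRCm38.p6, at the first start listed for each gene, 5′ to 3′ on the strand of the gene. Capitals mark ACGTG or GCGTG on either strand, so that CACGT and CACGC are marked as well.
*Slc2a1*, chr4:119108495-119108744, plus strand: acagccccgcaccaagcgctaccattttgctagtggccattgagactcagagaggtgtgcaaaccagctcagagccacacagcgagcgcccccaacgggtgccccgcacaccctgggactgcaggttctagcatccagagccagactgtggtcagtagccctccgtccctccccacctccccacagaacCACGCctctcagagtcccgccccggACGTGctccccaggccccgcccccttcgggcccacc
*Slc2a2*, chr3:28697653-28697902, plus strand: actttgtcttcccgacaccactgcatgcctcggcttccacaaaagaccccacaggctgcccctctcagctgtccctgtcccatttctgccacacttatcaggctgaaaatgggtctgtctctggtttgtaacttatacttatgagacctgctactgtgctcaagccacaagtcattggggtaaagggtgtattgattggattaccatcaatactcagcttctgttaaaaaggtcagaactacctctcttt
*Ldha*, chr7:46845554-46845803, plus strand: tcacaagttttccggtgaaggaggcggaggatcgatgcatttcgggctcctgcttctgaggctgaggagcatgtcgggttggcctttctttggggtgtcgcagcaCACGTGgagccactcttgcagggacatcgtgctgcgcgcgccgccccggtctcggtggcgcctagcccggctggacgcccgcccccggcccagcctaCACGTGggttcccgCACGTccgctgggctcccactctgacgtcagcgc
*Ldhb*, chr6:142507958-142508207, minus strand: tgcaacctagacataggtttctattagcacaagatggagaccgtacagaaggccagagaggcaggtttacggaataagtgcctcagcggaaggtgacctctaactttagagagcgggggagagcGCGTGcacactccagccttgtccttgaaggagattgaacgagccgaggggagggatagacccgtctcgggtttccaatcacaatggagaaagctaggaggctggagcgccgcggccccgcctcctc
*Slc16a3*, chr11:120948817-120949066, plus strand: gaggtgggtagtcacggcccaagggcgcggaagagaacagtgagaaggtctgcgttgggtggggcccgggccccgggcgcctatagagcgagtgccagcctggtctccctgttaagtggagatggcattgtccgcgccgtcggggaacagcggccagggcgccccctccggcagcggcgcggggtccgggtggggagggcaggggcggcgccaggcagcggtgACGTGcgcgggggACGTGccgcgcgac
*Pklr*, chr3:89135892-89136141, plus strand: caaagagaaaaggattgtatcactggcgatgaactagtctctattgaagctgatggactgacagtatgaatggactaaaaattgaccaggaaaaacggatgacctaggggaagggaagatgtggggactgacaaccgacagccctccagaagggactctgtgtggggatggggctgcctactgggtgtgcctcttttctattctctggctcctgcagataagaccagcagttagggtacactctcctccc
*Pdk2*, chr11:95041372-95041621, minus strand: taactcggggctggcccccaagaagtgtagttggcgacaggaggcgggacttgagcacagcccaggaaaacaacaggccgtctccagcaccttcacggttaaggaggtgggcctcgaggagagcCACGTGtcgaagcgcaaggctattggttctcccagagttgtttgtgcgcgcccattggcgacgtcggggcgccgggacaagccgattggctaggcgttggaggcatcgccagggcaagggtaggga

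The *Slc2a1* stretch holds 1 match of each core and the *Slc2a2* stretch holds 0 of either. In *Ldha* there are 3 separate matches of ACGTG, counting a CACGTG, which reads the same on both strands, as 1, while *Ldhb* has 1 match of GCGTG. *Slc16a3* has 2 matches of ACGTG, *Pdk2* has 1 and *Pklr* has 0. The RefSeq table used here held a stretch for 31 of the 33 members, and none for *Slc2a3* and *Gpd1*. A match of either core stood in 20 of these 31, which is 64.5%, against 38.6% of the 27025 genes in the RefSeq table. ACGTG alone stood in 11 members, or 35.5%, against 16.6% of all genes. A match is only a match of letters in this window, and no binding was measured.

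*Ucp2*, the gene of the transgene, separated the genotypes as labelled. On the log2 scale used throughout, where 0 is the 75th percentile of the same array, *Ucp2* read 7.71, 7.50, 7.33 and 6.99 in βUCP2Tg replicates 1 to 4 and 1.18, 0.92, 1.03 and 1.46 in WT replicates 1 to 4. That is 75.4-fold higher in βUCP2Tg (log2 fold change 6.24 ± 0.18 SE, limma adjusted p = 9.32e-06). The mean of its probes gave a log2 fold change of 3.34. Each genotype filled its own row of the slide, so row and genotype cannot be told apart. The 75th percentile before scaling lay between 9.0 and 9.16 in βUCP2Tg and between 8.78 and 8.89 in WT, and these ranges did not overlap (exact two-sided permutation p = 0.0286, the smallest that 4 against 4 arrays can give). A value relative to it is therefore relative to the bright probes of the same array. Over the brightest probe of each of 17857 tested genes, 37 were lower and 49 higher in βUCP2Tg at an adjusted p under 0.05 and a change over 1.5-fold.

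A pair of arrays, βUCP2Tg replicate 4 and WT replicate 1, stood apart from the others in the members. In the median over the 18 members that were lower at an unadjusted p under 0.05, βUCP2Tg replicates 1 to 3 lay 1.64, 1.65 and 1.63 log2 units below the WT mean (values of -1.64, -1.65 and -1.63). βUCP2Tg replicate 4 lay at -0.21, close to WT replicates 2, 3 and 4 at 0.21, 0.13 and 0.31. WT replicate 1 lay in between, at -0.73. In 17 of these 18 members βUCP2Tg replicate 4 read above WT replicate 1. Among all 2078 genes lower at an unadjusted p under 0.05, this was so for 30.6%. Results are therefore given with all 8 arrays first and without this pair afterwards.

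None of the 32 tested members passed the test with all 8 arrays (limma, adjusted p under 0.05 and over 1.5-fold), against 0.207% of all tested genes called lower and 0.274% called higher. The methods' t-test with Benjamini-Hochberg adjustment also called 0 members. Without adjustment, and over 1.5-fold, it called 13 lower (3.43% of all genes) and 3 higher (3.86%). Normexp background correction with limma called 5 members lower (1.48%) and 1 higher (1.10%). At an unadjusted p under 0.05 there were 18 members lower and 4 higher, or 22 of 32, where 24.5% of all tested genes reached this limit (11.6% lower and 12.9% higher). The adjusted p of these 22 members ran from 0.0823 to 0.194. The median log2 fold change of the 32 members was -0.48, while the median over all tested probes was -0.02. In 2 members, *Pklr* and *Pdk2*, every βUCP2Tg array lay above every WT array. Among all genes the groups did not overlap in 6.36% on the higher side and 6.73% on the lower side, so a count of 2 higher and 0 lower in 32 is near or below the background.

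**Figure D1:**
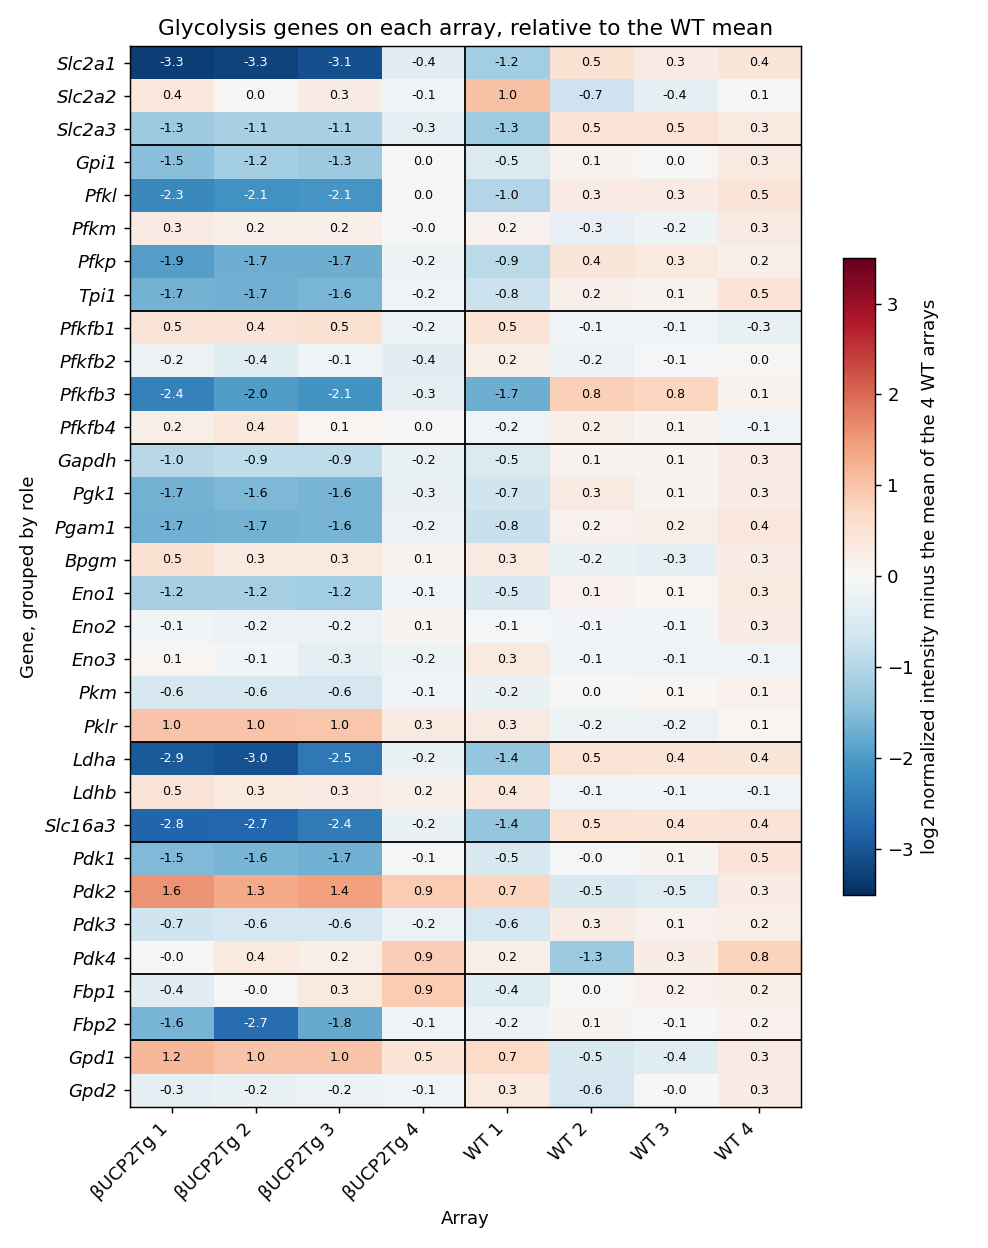
Log2 normalized intensity of the 32 tested members (rows, grouped by role and separated by lines) on the 8 arrays (columns), each minus the mean of the 4 WT arrays. Blue marks lower and red higher values, and βUCP2Tg replicates 1 to 3 are blue across most of the pathway. In the 18 members lower at an unadjusted p under 0.05, βUCP2Tg replicate 4 is close to WT replicates 2 to 4. WT replicate 1 is intermediate there. In the 4 higher members βUCP2Tg replicate 4 and WT replicate 1 are both intermediate, at medians of 0.40 and 0.51.

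Of the 3 glucose transporters, the low-affinity β-cell transporter differed least. *Slc2a1* encodes GLUT1, the transporter of most cells. It read 1.16, 1.20, 1.37 and 4.05 in βUCP2Tg replicates 1 to 4 and 3.22, 4.98, 4.74 and 4.86 in WT replicates 1 to 4. The first 3 βUCP2Tg arrays lay below every WT array, and the fourth lay above WT replicate 1. On average *Slc2a1* was 5.68-fold lower in βUCP2Tg, the largest difference among the members at the 1 probe used for each gene (log2 fold change -2.51 ± 0.70 SE, 95% confidence interval -4.10 to -0.91, limma adjusted p = 0.100).

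*Slc2a3* encodes GLUT3, a high-affinity transporter known from neurons. Its values were -1.91, -1.76, -1.76 and -0.93 in βUCP2Tg and -1.88, -0.14, -0.16 and -0.32 in WT. WT replicate 1 fell among the low βUCP2Tg arrays here, and the means differed 1.95-fold (log2 fold change -0.96 ± 0.41 SE, adjusted p = 0.191). *Slc2a2* encodes GLUT2, through which glucose enters the mouse β-cell. It averaged -0.10 ± 0.23 in βUCP2Tg and -0.24 ± 0.74 in WT (SD, n = 4 each). Its interval ran from -0.63 to 0.92, which leaves room for a change of either sign.

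Among the enzymes of upper glycolysis, 4 of 5 were lower at an unadjusted p under 0.05, and the muscle isoform of phosphofructokinase was not among them. *Gpi1*, which turns glucose 6-phosphate into fructose 6-phosphate, read 4.78, 5.05, 4.98 and 6.25 in βUCP2Tg and 5.74, 6.37, 6.29 and 6.57 in WT. Its mean was 1.97-fold lower in βUCP2Tg (adjusted p = 0.128). *Pfkl*, the liver isoform of phosphofructokinase, the committed step of the pathway, read 0.06, 0.21, 0.26 and 2.33 in βUCP2Tg and 1.29, 2.60, 2.60 and 2.76 in WT. The groups overlapped only because βUCP2Tg replicate 4 exceeded WT replicate 1, and the means stood 3.03-fold apart (log2 fold change -1.60 ± 0.55 SE, adjusted p = 0.133).

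*Pfkp*, the platelet isoform, gave 1.39, 1.61, 1.62 and 3.16 in βUCP2Tg against 2.38, 3.74, 3.67 and 3.51 in WT. It was 2.61-fold lower on average (log2 fold change -1.38, adjusted p = 0.121), and the mean of its probes gave -2.27. *Pfkm*, the muscle isoform, averaged 2.29 ± 0.12 in βUCP2Tg and 2.15 ± 0.27 in WT (SD, n = 4 each). Its interval of -0.18 to 0.48 lay within a 1.5-fold change in either direction. *Tpi1*, which interconverts the 2 triose phosphates, read 3.96, 3.94, 4.01 and 5.46 in βUCP2Tg and 4.85, 5.79, 5.73 and 6.09 in WT. The spread among the first 3 βUCP2Tg arrays was small beside the distance to the fourth, and the mean was 2.41-fold lower (adjusted p = 0.115).

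The 4 PFKFB enzymes make and break fructose 2,6-bisphosphate, the strongest activator of phosphofructokinase. *Pfkfb3*, the isoform with the highest ratio of synthesis to breakdown, read 1.32, 1.74, 1.61 and 3.37 in βUCP2Tg and 1.98, 4.53, 4.46 and 3.80 in WT. WT replicate 1 lay nearer to the low βUCP2Tg arrays than to the other WT arrays, and the means differed 3.21-fold (log2 fold change -1.68 ± 0.64 SE, adjusted p = 0.158). *Pfkfb2*, the heart isoform, was the exception to the array pattern. Its values were 2.42, 2.17, 2.45 and 2.20 in βUCP2Tg and 2.79, 2.41, 2.53 and 2.63 in WT. Here WT replicate 1 was the highest array, and the mean was 1.21-fold lower in βUCP2Tg (adjusted p = 0.183). *Pfkfb1* (log2 fold change 0.31 ± 0.21 SE) and *Pfkfb4* (0.16 ± 0.13 SE) did not pass an unadjusted p of 0.05.

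In lower glycolysis 5 of 9 tested enzymes were lower and 1 was higher at an unadjusted p under 0.05. *Gapdh*, the dehydrogenase that makes NADH and is often used as a reference gene, read 5.80, 5.88, 5.87 and 6.53 in βUCP2Tg and 6.25, 6.89, 6.86 and 7.06 in WT. Its mean was 1.68-fold lower in βUCP2Tg (adjusted p = 0.108). *Pgk1*, which makes the first ATP of the pathway, read 5.88, 5.96, 5.91 and 7.26 in βUCP2Tg and 6.83, 7.84, 7.66 and 7.79 in WT. With βUCP2Tg replicate 4 above WT replicate 1, the groups overlapped, and the means were 2.43-fold apart (adjusted p = 0.101). *Pgam1*, the mutase of most tissues, read 4.45, 4.47, 4.50 and 5.93 in βUCP2Tg and 5.35, 6.30, 6.36 and 6.54 in WT. Its mean was 2.46-fold lower (adjusted p = 0.110).

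*Eno1*, the enolase of most cells, gave 4.97, 4.96, 4.90 and 6.01 in βUCP2Tg against 5.60, 6.26, 6.18 and 6.46 in WT, a mean 1.89-fold lower (adjusted p = 0.116). The neuronal and muscle enolases had smaller differences. No test compared them with *Eno1*, whose 95% confidence interval of -1.57 to -0.26 overlapped theirs. *Eno2* had a log2 fold change of -0.10 ± 0.12 SE and *Eno3* one of -0.13 ± 0.14 SE, with intervals of -0.38 to 0.18 and -0.45 to 0.20. *Bpgm*, which makes 2,3-bisphosphoglycerate, had a log2 fold change of 0.32 ± 0.18 SE. Several of these enzymes have many processed copies in the mouse genome, and whether probes also bound their transcripts was not tested.

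Pyruvate kinase, which makes pyruvate, was split between its genes. *Pkm* read 5.57, 5.55, 5.52 and 6.02 in βUCP2Tg and 5.90, 6.15, 6.18 and 6.27 in WT, and its mean was 1.37-fold lower in βUCP2Tg (log2 fold change -0.46 ± 0.14 SE, adjusted p = 0.114). *Pklr*, the pyruvate kinase of liver and red cells, read -3.51, -3.51, -3.53 and -4.20 in βUCP2Tg and -4.21, -4.70, -4.71 and -4.45 in WT. Every βUCP2Tg array exceeded every WT array, though βUCP2Tg replicate 4 and WT replicate 1 were nearly equal. The mean was 1.77-fold higher in βUCP2Tg (log2 fold change 0.83 ± 0.19 SE, 95% confidence interval 0.39 to 1.27, adjusted p = 0.0840). With normexp background correction, the log2 fold change of this dim gene was 0.17.

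All 3 genes of lactate formation and export reached an unadjusted p under 0.05. *Ldha* encodes the lactate dehydrogenase subunit that favours lactate formation. It read 1.68, 1.57, 2.11 and 4.37 in βUCP2Tg and 3.25, 5.11, 5.05 and 5.05 in WT. WT replicates 2 to 4 agreed within 0.06 log2 units, while WT replicate 1 lay well below them and below βUCP2Tg replicate 4. On average *Ldha* was 4.53-fold lower in βUCP2Tg (log2 fold change -2.18 ± 0.68 SE, 95% confidence interval -3.74 to -0.62, adjusted p = 0.116).

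*Slc16a3*, which encodes the lactate exporter MCT4, read -0.63, -0.58, -0.29 and 1.92 in βUCP2Tg and 0.79, 2.62, 2.60 and 2.60 in WT. As in *Ldha*, WT replicate 1 lay below βUCP2Tg replicate 4, and the mean was 4.14-fold lower in βUCP2Tg (log2 fold change -2.05 ± 0.65 SE, adjusted p = 0.118). *Ldhb* encodes the subunit that favours pyruvate. Its values were 1.67, 1.55, 1.51 and 1.40 in βUCP2Tg and 1.58, 1.09, 1.12 and 1.08 in WT. WT replicate 1 stood among the βUCP2Tg arrays, and the mean was 1.24-fold higher in βUCP2Tg (log2 fold change 0.31 ± 0.13 SE, adjusted p = 0.194).

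The 4 pyruvate dehydrogenase kinases, which keep pyruvate out of the mitochondrial citrate cycle, did not lie on the same side. *Pdk1* read 1.02, 0.94, 0.90 and 2.52 in βUCP2Tg and 2.05, 2.52, 2.68 and 3.03 in WT. Its mean was 2.34-fold lower in βUCP2Tg (log2 fold change -1.22 ± 0.38 SE, adjusted p = 0.115). *Pdk3* gave -0.16, -0.05, -0.06 and 0.32 in βUCP2Tg against -0.10, 0.78, 0.66 and 0.76 in WT, 1.43-fold lower (adjusted p = 0.183).

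*Pdk2*, the widely expressed kinase, ran the other way, with 0.10, -0.14, -0.05 and -0.60 in βUCP2Tg and -0.74, -2.02, -1.94 and -1.23 in WT. All βUCP2Tg arrays lay above all WT arrays. The mean was 2.48-fold higher in βUCP2Tg (log2 fold change 1.31 ± 0.30 SE, 95% confidence interval 0.63 to 1.99, adjusted p = 0.0823, the smallest of any member). *Pdk4*, the kinase of the fasted state, averaged -0.18 ± 0.37 in βUCP2Tg and -0.53 ± 0.89 in WT (SD, n = 4 each), and its interval was wide, from -0.61 to 1.31.

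**Figure D2:**
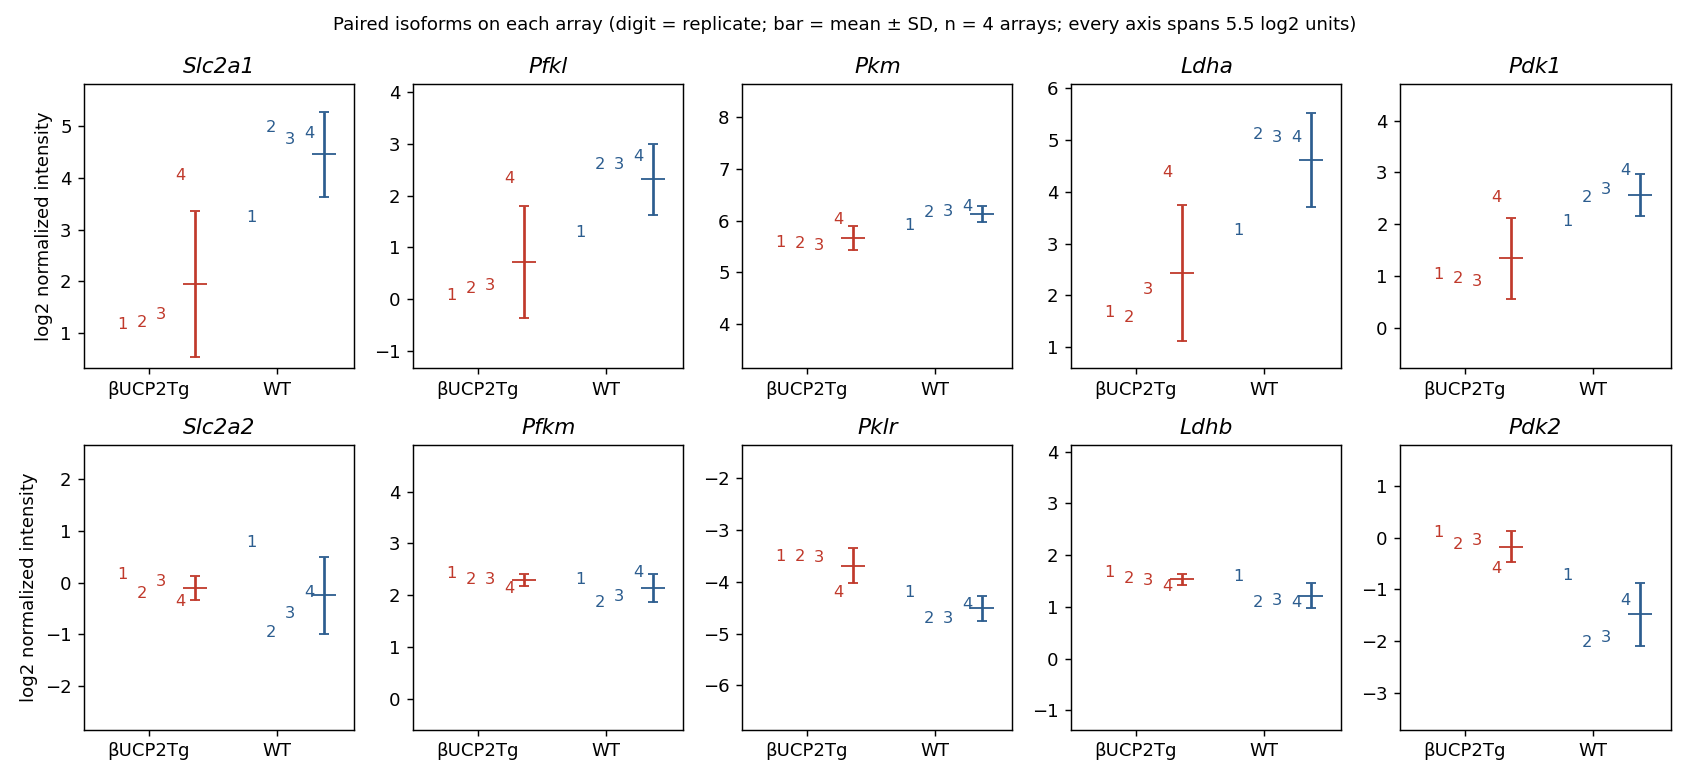
Log2 normalized intensity (array 75th percentile = 0) of 5 isoform pairs in βUCP2Tg (red) and WT (blue) islets; each digit is the array of that replicate and the bars show mean ± SD of the 4 arrays. In the upper row βUCP2Tg replicates 1 to 3 lie below all WT arrays and replicate 4 lies above WT replicate 1, whereas in *Pklr* and *Pdk2* all βUCP2Tg arrays lie above all WT arrays.

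The fructose bisphosphatases run the phosphofructokinase step backwards. *Fbp2*, the muscle form, read -4.24, -5.29, -4.38 and -2.74 in βUCP2Tg and -2.79, -2.53, -2.70 and -2.46 in WT. WT replicate 1 was close to the other WT arrays in this gene, and βUCP2Tg replicate 4 exceeded it only slightly. The mean was 2.92-fold lower in βUCP2Tg (log2 fold change -1.54 ± 0.46 SE, adjusted p = 0.109), and the log2 fold change was -0.74 with normexp background correction. *Fbp1*, the liver form, read 0.84, 1.21, 1.58 and 2.14 in βUCP2Tg and 0.82, 1.28, 1.40 and 1.46 in WT, with a log2 fold change of 0.20 ± 0.28 SE.

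The glycerol phosphate shuttle carries the electrons of cytosolic NADH into the mitochondria. *Gpd1*, its cytosolic enzyme, read 3.21, 3.05, 3.06 and 2.53 in βUCP2Tg and 2.71, 1.52, 1.63 and 2.34 in WT. The groups overlapped by the same pair of arrays, and the mean was 1.88-fold higher in βUCP2Tg (log2 fold change 0.91 ± 0.28 SE, adjusted p = 0.115). *Gpd2*, its mitochondrial partner, had a log2 fold change of -0.21 ± 0.20 SE, with an interval of -0.66 to 0.24.

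Without βUCP2Tg replicate 4 and WT replicate 1, 17 members fell and 4 rose in βUCP2Tg at an adjusted p under 0.05 and over 1.5-fold, against 6.46% of all tested genes called lower and 9.22% called higher (limma). This setting was chosen after the values were seen, and the arrays left out are those that brought the groups together, so it describes the other 6 arrays. *Slc2a1* was 12.3-fold lower (adjusted p = 0.000144), *Ldha* 9.72-fold and *Slc16a3* 8.64-fold. The 17 were the 18 members listed above as lower, other than *Pfkfb2*. The 4 that rose were *Pdk2* (3.24-fold), *Gpd1* (2.42-fold), *Pklr* (2.15-fold) and *Pfkfb1* (1.56-fold). *Slc2a2*, *Pfkm*, *Eno2*, *Eno3*, *Pdk4* and *Fbp1* were still not called.

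Leaving out either array alone was enough for calls. Without βUCP2Tg replicate 4 there were 13 members called lower (2.14% of all genes) and 2 called higher (1.38%). Without WT replicate 1 there were also 13 lower (4.55%) and 3 higher (6.89%). Leaving out any other single array gave no call. The groups did not overlap in 15 members on the lower side without βUCP2Tg replicate 4 (12.6% of all genes), and in 17 without WT replicate 1 (14.0%). On the higher side they did not overlap in 3 members (14.1% of all genes) and 4 members (18.4%). Without both arrays it was 17 members on the lower side (19.2%) and 6 on the higher side (27.3%), so that the count on the higher side lay below the background in all these settings. The share of genes called therefore grew over the whole array as well.

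**Figure D3:**
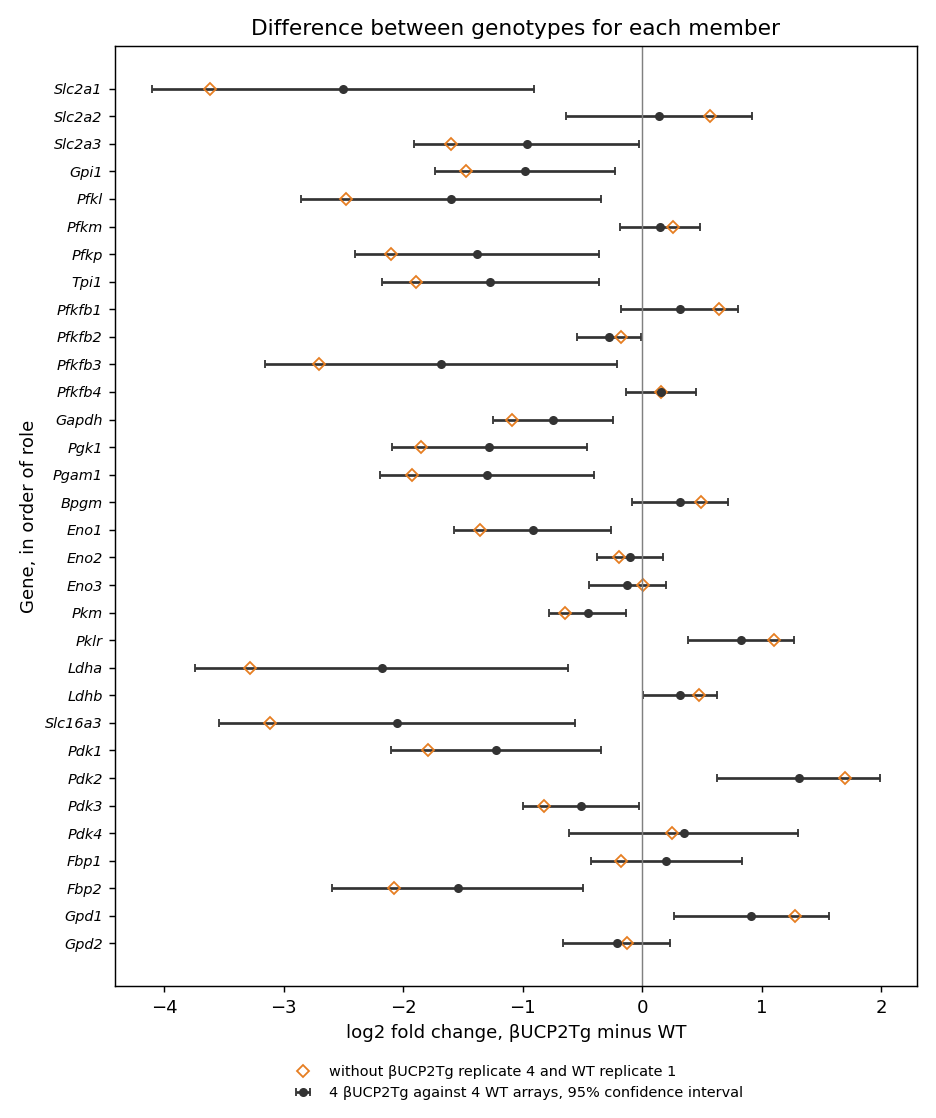
Log2 fold change of each tested member, βUCP2Tg minus WT, in order of role; dots and bars are the estimate and 95% confidence interval from all 8 arrays, and open diamonds are the estimates without βUCP2Tg replicate 4 and WT replicate 1. *Slc2a1*, *Ldha* and *Slc16a3* lie farthest to the left, at -2.51, -2.18 and -2.05, and *Pdk2* farthest to the right, at 1.31.

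Other probes of the lower members on the same arrays gave the same direction. The table holds 72 probes for the 33 members, and 66 of them were tested. For the 18 lower members there were 31 further tested probes, all of them below 0 and 27 of them at an unadjusted p under 0.05. The 4 higher members had 2 further tested probes, both above 0 and 1 of them at an unadjusted p under 0.05. These were a *Gpd1* probe at 0.43 ± 0.17 SE and an *Ldhb* probe at 0.29 ± 0.15 SE, and *Pklr* and *Pdk2* had no further probe. The size differed between probes of a gene. The largest differences were those of 2 dimmer *Pfkp* probes above background on all 8 arrays, with log2 fold changes of -2.97 ± 0.70 and -2.93 ± 0.72 SE, beyond the -2.51 of *Slc2a1*. A second *Pfkl* probe had a log2 fold change of -2.34 ± 0.55 SE and a further *Eno1* probe one of -2.39 ± 0.55 SE. The weakest was a *Pdk1* probe at -0.04 ± 0.10 SE, while another *Pdk1* probe stood at -1.98 ± 0.54 SE. Among the other members, a second, dimmer *Gpd2* probe stood at -0.59 ± 0.17 SE (adjusted p = 0.105), with every βUCP2Tg array below every WT array. The *Pfkp*, *Pfkl*, *Eno1* and *Pdk1* probes named here with larger differences carry other transcript labels than the probe used for the gene. They may therefore read other forms of these genes. All probes share the arrays and the RNA, so they are not further samples.

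The 26 other genes of the pathway were all measured, and none was called (0.207% lower and 0.274% higher among all genes). At an unadjusted p under 0.05, 6 were lower and 1 was higher, against 11.6% and 12.9% of all genes, and their median log2 fold change was 0.00. *Hk2*, the hexokinase of muscle and fat, had the largest difference. It read -4.23, -4.07, -4.57 and -3.40 in βUCP2Tg and -4.37, -1.12, -1.31 and -2.31 in WT, with a log2 fold change of -1.79 ± 0.67 SE (adjusted p = 0.153). WT replicate 1 was again among the βUCP2Tg arrays. *Slc16a1*, which encodes the lactate transporter MCT1, had a log2 fold change of -1.15 ± 0.34 SE (adjusted p = 0.109). The aldolase genes *Aldoa* (-0.63 ± 0.21 SE) and *Aldoc* (-0.67 ± 0.24 SE), the lipoamide dehydrogenase *Dld* (-0.28 ± 0.09 SE) and the malate dehydrogenase *Mdh1* (-0.35 ± 0.09 SE) completed the lower ones. The aspartate-glutamate carrier *Slc25a13* was the higher one (0.50 ± 0.21 SE).

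Several other genes at the steps before and after the members did not reach an unadjusted p of 0.05. *Hk1*, a hexokinase of many tissues, had a log2 fold change of 0.03 ± 0.19 SE. The mitochondrial pyruvate carrier genes *Mpc1* (-0.14 ± 0.10 SE) and *Mpc2* (0.03 ± 0.10 SE), the pyruvate dehydrogenase subunits *Pdha1* (-0.02 ± 0.09 SE) and *Pdhb* (0.03 ± 0.12 SE) and pyruvate carboxylase, *Pcx* (0.17 ± 0.17 SE), were among them. Without βUCP2Tg replicate 4 and WT replicate 1, 4 of the 26 were called lower and 1 higher, where 6.46% and 9.22% of all genes were.

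A list of the hypoxia response outside glycolysis, chosen with earlier results of these data known, was read on the same arrays. It holds genes that HIF-1 is known to raise, together with *Hif1a* and *Epas1*, which encode HIF subunits. Of its 22 genes 20 were tested, and *Car12* and *Lox* were above background on 0 arrays. None of the 20 was called. At an unadjusted p under 0.05, 15 were lower and 1 was higher (11.6% and 12.9% of all genes), and the median log2 fold change was -1.14. βUCP2Tg replicate 4 read above WT replicate 1 in 13 of these 15 lower genes, against 30.6% of all lower genes. The other two, *Vegfa* and *Ddit4*, had groups that did not overlap. *Ak4*, a mitochondrial adenylate kinase, read -3.38, -3.02, -2.46 and 2.19 in βUCP2Tg and 1.13, 2.95, 3.06 and 3.02 in WT. *Adm*, which encodes adrenomedullin, had a log2 fold change of -2.56 ± 0.73 SE and *Bnip3*, a mitophagy receptor, one of -1.54 ± 0.45 SE. *Vegfa* differed by -0.28 ± 0.09 SE and *Hif1a*, counted among the 15 lower, by -0.28 ± 0.12 SE. *Epas1*, which encodes HIF-2α, was the 1 counted as higher (0.33 ± 0.12 SE), and *Car9* differed by 0.45 ± 0.29 SE. Without the 2 arrays that stood apart, 15 of the 20 were called lower and 1 was called higher, against 6.46% and 9.22% of all genes. Oxygen was not measured, and its part in these values was not tested.

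The labelled tissue was borne out by its markers, and the summed levels of other cell types were set beside the members. In bulk islets, fewer cells of a type and less RNA per cell cannot be told apart. All 8 β-cell markers were above background on every array, and their summed level on the linear scale, in units of the array's 75th percentile, ran from 1135 to 1513 in βUCP2Tg and from 1459 to 1498 in WT. The 18 lower members summed to 279, 291, 288 and 633 in βUCP2Tg and to 466, 841, 798 and 893 in WT. Summed acinar markers (10 genes, *Ptf1a* above background on no array) were 8.90, 27.0, 11.4 and 163 in βUCP2Tg and 102, 206, 294 and 13.3 in WT. They were low in βUCP2Tg replicates 1 to 3 and in WT replicate 4. The part of acinar tissue in the members was not tested.

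Endothelial markers (6 of 6 above background on every array) summed to between 14.9 and 18.5 in βUCP2Tg and between 8.97 and 14.4 in WT. These ranges did not overlap, and the part of endothelium in the members was not tested. Macrophage markers (7 of 7) summed to 9.95 to 12 in βUCP2Tg and 11.3 to 14.7 in WT. Stellate and fibroblast markers (5 of 5) summed to 1.90 to 2.21 and 1.06 to 2.63. In skeletal muscle the defining genes *Ckm* and *Mb* were above background on no array, and in fat *Plin1* was on none and *Adipoq* on 1. Summed adipocyte markers ran from 1.35 to 1.92 in βUCP2Tg and from 2.0 to 2.70 in WT and did not overlap, set mostly by *Fabp4*, which macrophages and endothelium also express (log2 fold change -0.66 ± 0.17 SE, adjusted p = 0.0885). The part of fat in the members was not tested. Duct markers summed to 11.9 to 15.6 and 6.52 to 13.5. That sum was set by the bright *Krt7* (log2 fold change 0.70 ± 0.24 SE), while *Krt19* (-1.63 ± 0.33 SE) and *Sox9* (-0.88 ± 0.22 SE) ran the other way, and none of the 3 was called. The part of duct cells in the members was not tested. Summed α-cell markers ran from 217 to 280 and 177 to 268, δ-cell markers from 188 to 231 and 189 to 221, and the 2 PP-cell genes from 444 to 568 and 294 to 440. The PP-cell sums did not overlap, and their part in the members was not tested.

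**Figure D4:**
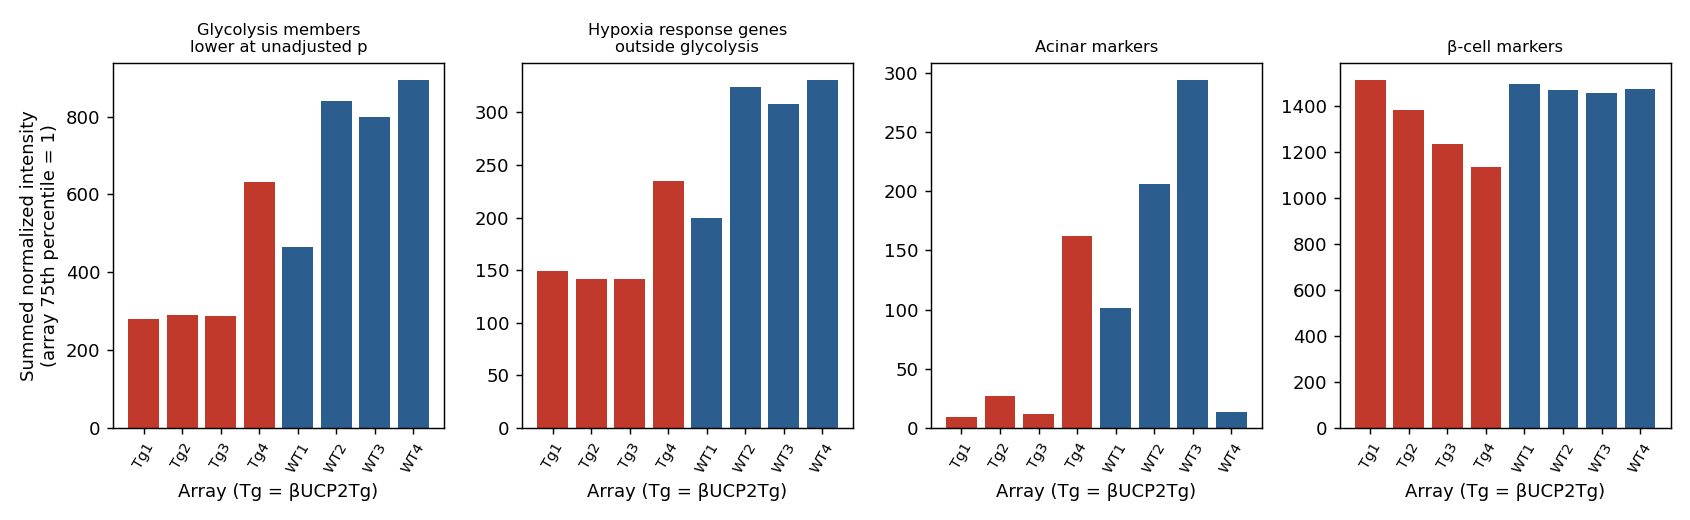
Summed normalized intensity (linear scale, array 75th percentile = 1, each panel with its own axis from 0) per array for the 18 lower members, the hypoxia response genes outside glycolysis, the acinar markers and the β-cell markers; βUCP2Tg red, WT blue. A sum is set mostly by the brightest genes of its list, and both the lower members and the hypoxia genes are lowest in βUCP2Tg replicates 1 to 3, intermediate in WT replicate 1 and βUCP2Tg replicate 4 and highest in WT replicates 2 to 4, and the acinar sum is low in βUCP2Tg replicates 1 to 3 and WT replicate 4.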

How the data were processed

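The authors scanned 8 one-colour Agilent arrays (4 βUCP2Tg, 4 WT), and the deposited scanner files give every spot a background-subtracted linear intensity from Feature Extraction, version 10.7.3.1 per the file headers and 9.1 per the labels. The deposited GeneSpring table holds log2 values that the authors shifted to each array's 75th percentile, and it also holds their fold changes and p-values, which were not used. That table gave the gene symbols and the probe of each gene. From the scanner files, control and outlier spots were dropped, log2 was taken, each array's 75th percentile was subtracted and replicate spots were averaged. On an array, a probe had to have at least 50% of its spots well above background to count as measured. The test took the 35363 probes that reached this on 4 or more of the 8 arrays and was run with limma 3.58.1 in R 4.3.3 (package data.table, version 1.17.8), with Benjamini-Hochberg adjustment over all of them. Calls needed an adjusted p under 0.05 and over 1.5-fold. Background shares use the brightest probe of each gene. The fit was tested on simulated data. Python 3.11.15 with matplotlib 3.10.9 made the figures.

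The members and the gene lists were chosen with earlier results of these data known. All 33 members are named. Values of every array are given for members at an unadjusted p under 0.05, with groups that do not overlap, or brightest in their enzyme family, and others by group means, fold change or interval. Genes of the other lists were named for their size or role after their values were seen. The alternatives were other filters on dim probes, quantile, median or another 75th percentile scaling, normexp with an offset of 50 and the authors' log2 values. Others were outlier spots kept, a floor at a signal of 5, an intensity trend, Student's t-test and no or a 2-fold limit. Further ones were averaging the probes of each gene, a replicate block and leaving out each array. All arrays lay on 1 slide and were scanned together, and the number of arrays limits the precision. Some genes are not reported here.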

Additional observations from a re-analysis of the deposited data

Results flagged for a closer look

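Within groups of 4 arrays, 24 of 68 groups examined (32 members, *Ucp2* and the array's 75th percentile, each in both genotypes) held an array whose gap to its nearest neighbour, as a share of the group's whole range, was over Dixon's 95% critical value for 4 samples. Chance would give about 1 in 20, or 3.4. βUCP2Tg replicate 4 was the distant array in all 14 groups found among βUCP2Tg, and WT replicate 1 in 9 of the 10 found among WT.

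βUCP2Tg replicate 4 was the highest array with a gap share of 0.928 in *Slc2a1*, 0.846 in *Slc2a3*, 0.914 in *Pfkl*, 0.872 in *Pfkp*, 0.955 in *Tpi1*, 0.891 in *Gapdh*, 0.939 in *Pgk1*, 0.969 in *Pgam1*, 0.942 in *Eno1*, 0.902 in *Pkm*, 0.867 in *Slc16a3* and 0.924 in *Pdk1*. It was the lowest with 0.882 in *Pfkfb1* and 0.963 in *Pklr*. WT replicate 1 was the lowest array with 0.863 in *Slc2a1*, 0.894 in *Slc2a3*, 0.888 in *Pfkl*, 0.832 in *Pfkp*, 0.968 in *Ldha*, 0.990 in *Slc16a3* and 0.868 in *Pdk3*, and the highest with 0.909 in *Eno3* and 0.935 in *Ldhb*. WT replicate 4 was the highest in *Eno2*, with 0.894. Since these genes were read on the same arrays, their gaps are not independent of each other.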

How the results depend on the processing

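Leaving out βUCP2Tg replicate 4 or WT replicate 1 brought calls among the members, and leaving out any of the other 6 arrays brought none. The other filters, scalings, the authors' normalized values, the floor, the trend and the outlier spots left 0 members called in either direction, and the members split into 21 below and 11 above 0 under all 6 scalings tried. Normexp background correction called 5 members lower and 1 higher, with 1 other gene of the pathway lower, against 1.48% and 1.10% of all genes. Student's t-test without adjustment called 13 lower and 3 higher (3.43% and 3.86% of all genes), and 2 other genes of the pathway lower. Groups that did not overlap on the higher side numbered 1 under quantile normalization, median scaling and normexp. On the lower side there was 1 under normexp and under the mean of all probes. With the main processing, 6.36% of all genes did not overlap on the higher side and 6.73% on the lower side. The shares of all genes under these alternatives are not given here. The next ranges cover leaving out each array and leaving out both βUCP2Tg replicate 4 and WT replicate 1. Non-overlapping members numbered 0 to 17 on the lower side and 2 to 6 on the higher side. Called members numbered 0 to 17 lower and 0 to 4 higher, and called other genes of the pathway 0 to 4 and 0 to 1. Members past an unadjusted p of 0.05 numbered 13 to 17 lower and 3 to 7 higher. Of all genes, 2298 of 17857 were higher at this limit with all 8 arrays and 3758 of 17652 without WT replicate 1. On the lower side it was 2078 of 17857 with all 8 arrays and 2659 of 17652 without WT replicate 1. Shares of all genes called or not overlapping stand beside the leave-out counts above. The setting without both arrays was chosen after seeing the data. It gave 17 members called lower (6.46% of all genes) and 4 called higher (9.22%). On the higher side 7 members passed an unadjusted p of 0.05, as did 4153 of 17484 genes. There 17 and 6 members did not overlap (19.2% and 27.3% of all genes), and 4 and 1 other genes of the pathway were called. The sign of 4 log2 fold changes turned under such settings. *Slc2a2* ran from -0.094 (without WT replicate 2) to 0.57, *Eno3* from -0.19 to 0.010 (without both), *Pdk4* from -0.079 (without WT replicate 2) to 0.61, and *Fbp1* from -0.17 (without both; -0.032 without βUCP2Tg replicate 4) to 0.40. None of these was called under any setting. The cause of these shifts was not tested.

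Whether the replicate numbers pair the samples is not stated in the sources used here. The deviations of same-numbered arrays correlated at 0.44, -0.05, -0.01 and -0.24, and only number 1 correlated best with its own number. These correlations cannot show how the samples were matched. With the number as a replicate block, 0 members were called, 18 lower and 4 higher passed an unadjusted p, and the adjusted p of the members started at 0.143. Dim genes such as *Pgam2* were limited by signal over background.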
